A study of Mus musculus with 6 samples.

Results

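NF-kB is a family of transcription factors whose dimers are held in the cytoplasm by inhibitory IkB proteins until a signal has the inhibitors destroyed, and among its first targets are genes that switch it off again. The genes described here are the 10 of this circuit that a fixed list of Ensembl identifiers named: the subunits Nfkb1, Nfkb2, Rela and Relb, the IkB genes Nfkbia, Nfkbie, Nfkbiz and Bcl3, and the feedback targets Tnfaip3 and Birc3. All 10 were measured, among 17204 genes in all. The names are those given with the list, since 0 of the 17204 identifiers are paired with symbols in the gene table used.

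The 6 arrays compared 2 mouse squamous cell carcinoma (SCC) lines, 3 arrays of SCC FAK-WT cells and 3 of SCC FAK-/- cells. Both came from skin tumors raised with the DMBA/TPA carcinogenesis protocol in K14CreER FAKflox/flox mice of the FVB strain. K14CreER is a tamoxifen-inducible Cre driven by the keratin 14 promoter, and FAK, focal adhesion kinase, is a tyrosine kinase that signals from integrins. Cultured cells of both lines therefore carried the recombined fak alleles. The SCC FAK-/- line is 1 clone that had lost FAK after treatment with 4-hydroxytamoxifen, and SCC FAK-WT is that clone after retroviral transduction with wild-type FAK, kept in 0.25 mg/ml hygromycin. FAK re-expression, transduction and the drug therefore cannot be told apart between the lines, and each array averaged a culture, so fewer cells with a transcript and less of it per cell cannot be told apart either. The titles number the replicates and do not say whether they were separate cultures. The SDs, intervals and p-values below therefore describe the spread between arrays within 1 line each. Over all genes, Pearson's r between replicate arrays was 0.988 to 0.993, and the array medians lay between 5.90 and 5.97 log2 units. Expression of the fak gene and of squamous cell markers was not analysed here, because their identifiers were not named.

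In the canonical pathway, a receptor such as that for TNF or IL-1 activates the IkB kinase, IkB alpha (the product of Nfkbia) is degraded, and dimers of RelA and the p50 subunit made from Nfkb1 enter the nucleus. In the non-canonical pathway, the p100 precursor made from Nfkb2 is cut to p52, which acts with RelB. In keratinocytes, the cells that squamous carcinomas arise from, the pathway is known for controlling inflammatory genes and survival. Much of this control is exerted on the location and stability of proteins, which arrays do not read.

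NF-kB dimers bind short DNA elements called kB sites, and such sites are known at the genes of the feedback loop. RefSeq promoter windows (GRCm38.p6, 250 bases before to 50 after a start site) were at hand for 7 of the 10 genes, and were searched on both strands for the 10-base kB consensus, which reads GGG, a purine, any base, A or T, a pair of pyrimidines and CC. A match was found for 5 of the 7, Nfkbia, Nfkbie, Nfkb2, Bcl3 and Tnfaip3, whereas 5.14% of the 27025 genes with a window and 4.51% of all 32851 windows hold one. With any base in place of the A or T, the share of genes was 9.55% and the same number of these genes, 5, had a match. The windows of Rela and Birc3 held no match, which says only that these letters are not in those windows. The genes were chosen as members of a circuit known for NF-kB feedback, so that a share above that of all genes is no independent finding. The matches are shown as sequences only, and whether they are the known sites was not examined. Each line gives 30 bases in the direction of the gene with the match in capitals, and matches can overlap or lie on the opposite strand.
Nfkbia, chr12:55492657-55492686, minus strand: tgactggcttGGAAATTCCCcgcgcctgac
Tnfaip3, near the start site, chr10:19015403-19015432, minus strand: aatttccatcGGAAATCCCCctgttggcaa
Tnfaip3, farther upstream, chr10:19015516-19015545, minus strand: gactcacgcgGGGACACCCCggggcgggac
Nfkb2, farther upstream, chr19:46304688-46304717, plus strand: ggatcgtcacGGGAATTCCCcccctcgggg
Nfkb2, near the start site, chr19:46304716-46304745, plus strand: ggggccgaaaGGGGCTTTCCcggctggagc
Nfkbie, chr17:45555584-45555613, plus strand: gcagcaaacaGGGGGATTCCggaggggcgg
Bcl3, chr7:19822734-19822763, minus strand: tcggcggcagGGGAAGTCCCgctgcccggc

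Counted from the first transcribed base, the match began at -29 in Nfkbia, at -12 and -125 in Tnfaip3, at -39 and -11 in the first of the 3 Nfkb2 windows, at -106 in Nfkbie and at 3 in Bcl3. The Nfkb2 match at -39 is a palindrome that reads on both strands, and a further match overlaps it, shifted by 1 base. The other Nfkb2 windows hold matches as well, and the second Tnfaip3 window holds none. A match is a description of the sequence and was not tested as a site.

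To ask whether the RNA of this circuit differed between the cell lines, they were compared with limma over all 17204 genes. Of the 10 genes, 0 differed at an adjusted p under 0.05 and 0 at an unadjusted p under 0.01, against 1.92% (0.82% higher and 1.1% lower in SCC FAK-WT) and 6.85% (3.19% higher and 3.66% lower) of all genes. The study also used p under 0.01 for these arrays, without naming the test or saying whether p was adjusted. At an unadjusted p under 0.05 (limma) there were 2 of the 10 genes, Rela and Tnfaip3 (15.5% of all genes pass that level). With an ordinary linear model in place of limma's moderated variances, the unadjusted p was 0.0398 for Rela and 0.133 for Tnfaip3. The adjusted p ranged from 0.200 for Rela to 0.956 for Relb (limma). The mean log2 value was higher in SCC FAK-WT for 5 genes and lower for 5, with a median log2 fold change of 0.026 beside 0.016 over all genes. A missed threshold does not show that the lines are alike, and the intervals of the differences are given with each gene.

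**Figure D1:**
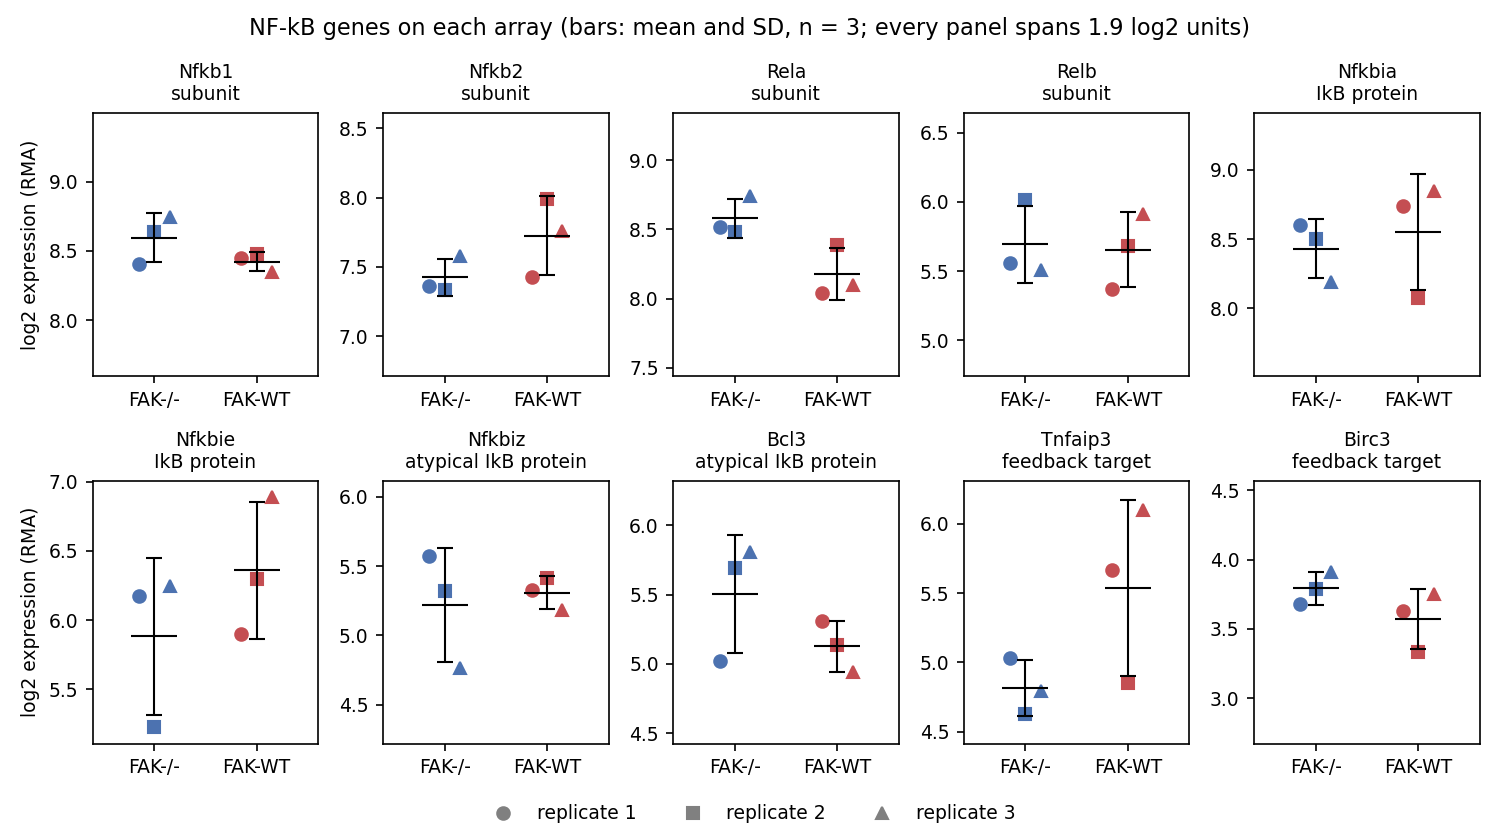
Log2 expression of the 10 genes on each array, with SCC FAK-/- in blue and SCC FAK-WT in red, the mean and SD of 3 arrays as black bars, and panels that all span the same number of log2 units. The red and blue points separate for Rela, between 8.39 and 8.48, and overlap for the other 9 genes.

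Among the subunits, Rela (ENSMUSG00000024927), which encodes the main activating subunit p65, was the gene whose lines did not overlap. Its log2 values were 8.04, 8.39 and 8.10 in SCC FAK-WT replicates 1, 2 and 3 and 8.52, 8.48 and 8.74 in those of SCC FAK-/-, the order used for all values that follow. Every SCC FAK-WT value lay below every SCC FAK-/- value, which was the case in either direction for 1 of the 10 genes and for 21.5% of all genes. The means were 8.18 ± 0.19 (SD, n = 3) and 8.58 ± 0.14 (SD, n = 3), a log2 fold change of -0.40 (95% interval -0.72 to -0.09, limma adjusted p = 0.200). The interval holds changes between a SCC FAK-WT level 0.608 times and one 0.938 times that of SCC FAK-/-.

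Nfkb2 (ENSMUSG00000025225), which encodes p100 and p52, leaned the other way. It was at 7.43, 7.99 and 7.76 in SCC FAK-WT and at 7.36, 7.33 and 7.58 in SCC FAK-/-. SCC FAK-WT replicates 2 and 3 were above all SCC FAK-/- arrays, and replicate 1 was within their range. The log2 fold change was 0.30 (95% interval -0.08 to 0.68, limma adjusted p = 0.439), and 0.17 without SCC FAK-WT replicate 2.

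Nfkb1 (ENSMUSG00000028163), the source of p105 and p50, was at 8.45, 8.48 and 8.35 in SCC FAK-WT and at 8.40, 8.64 and 8.74 in SCC FAK-/-. The SCC FAK-WT arrays were close together, with an SD of 0.068, and the lowest SCC FAK-/- array lay within their range. The log2 fold change was -0.17 (95% interval -0.45 to 0.11, limma adjusted p = 0.570). For Relb (ENSMUSG00000002983), the partner of p52, the values were 5.37, 5.68 and 5.91 in SCC FAK-WT and 5.56, 6.01 and 5.51 in SCC FAK-/-. The lines were interleaved, and the log2 fold change of -0.04 (95% interval -0.48 to 0.41, limma adjusted p = 0.956) was the smallest in size of the 10 genes.

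Of the inhibitors, Nfkbia (ENSMUSG00000021025) encodes IkB alpha, which is resynthesized after each activation. It was at 8.74, 8.07 and 8.85 in SCC FAK-WT and at 8.60, 8.50 and 8.19 in SCC FAK-/-. SCC FAK-WT held both the highest values and the lowest, that of replicate 2. The log2 fold change was 0.12 (95% interval -0.39 to 0.64, limma adjusted p = 0.861).

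Nfkbie (ENSMUSG00000023947) encodes IkB epsilon, an inhibitor that also responds to NF-kB. Its values were 5.90, 6.29 and 6.89 in SCC FAK-WT and 6.17, 5.23 and 6.24 in SCC FAK-/-. The lines overlapped, and the highest value was that of SCC FAK-WT replicate 3 and the lowest that of SCC FAK-/- replicate 2. The log2 fold change was 0.48 with the widest interval of the 10 genes, -0.31 to 1.26 (95%, limma adjusted p = 0.578). It was 0.15 without SCC FAK-/- replicate 2, 0.21 without SCC FAK-WT replicate 3 and at most 0.71, without SCC FAK-WT replicate 1.

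The atypical IkB proteins act in the nucleus, where IkB zeta (Nfkbiz, ENSMUSG00000035356) and Bcl-3 (Bcl3, ENSMUSG00000053175) join dimers of p50 or p52 on DNA. Nfkbiz was at 5.33, 5.41 and 5.18 in SCC FAK-WT and at 5.57, 5.32 and 4.77 in SCC FAK-/-, so that the SCC FAK-/- arrays reached both above and below SCC FAK-WT. Its log2 fold change was 0.09 (95% interval -0.39 to 0.57, limma adjusted p = 0.895). Bcl3 was at 5.31, 5.13 and 4.94 in SCC FAK-WT and at 5.02, 5.69 and 5.81 in SCC FAK-/-. SCC FAK-/- replicates 2 and 3 were above all SCC FAK-WT arrays and replicate 1 was among them, and the log2 fold change was -0.38 (95% interval -0.89 to 0.13, limma adjusted p = 0.477). Leaving out SCC FAK-/- replicate 1 gave -0.62 and leaving out SCC FAK-/- replicate 3 gave -0.23.

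Tnfaip3 (ENSMUSG00000019850), which encodes the ubiquitin-editing enzyme A20 that shuts off signaling upstream of the IkB kinase, had the largest difference of the 10 genes. It was at 5.67, 4.85 and 6.10 in SCC FAK-WT and at 5.03, 4.62 and 4.79 in SCC FAK-/-. SCC FAK-WT replicates 1 and 3 were above all SCC FAK-/- arrays, and replicate 2 was within their range. The means were 5.54 ± 0.63 (SD, n = 3) and 4.82 ± 0.20 (SD, n = 3), a log2 fold change of 0.72 or 1.65-fold (95% interval 1.02-fold to 2.68-fold, limma adjusted p = 0.305). With an array left out, the log2 fold change lay between 0.44 without SCC FAK-WT replicate 3 (limma adjusted p = 0.530) and 1.07 without SCC FAK-WT replicate 2 (limma adjusted p = 0.0704).

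Birc3 (ENSMUSG00000032000) encodes cIAP2, a ubiquitin ligase at the TNF receptor that also protects cells from death. It was at 3.63, 3.33 and 3.75 in SCC FAK-WT and at 3.68, 3.78 and 3.91 in SCC FAK-/-, where the lowest array was below the highest SCC FAK-WT array. The log2 fold change was -0.22 (95% interval -0.54 to 0.10, limma adjusted p = 0.518). The mean of Birc3 exceeded that of only 20.4% of all genes in the table, and differences of dim genes can be understated by the summary. The feedback targets thus had differences of opposite sign, and neither passed the test.

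**Figure D2:**
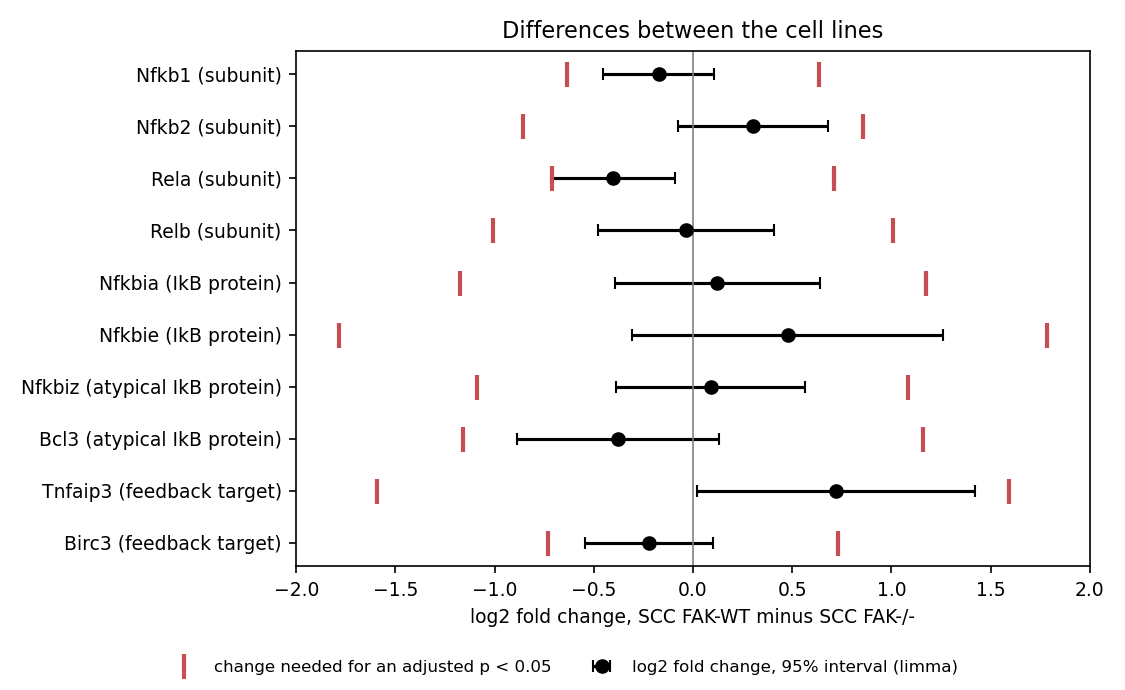
Log2 fold change of each gene (SCC FAK-WT minus SCC FAK-/-) as a point with its 95% interval from limma, and as red ticks the size of change that each gene's error would have needed for an adjusted p under 0.05. No point reaches its tick, and the intervals of Rela and Tnfaip3 leave out 0.

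The spread between replicates set what could be seen. An adjusted p under 0.05 corresponded to an unadjusted p of at most 0.000958, which needs a log2 fold change of 0.64 for Nfkb1, the gene with the smallest error, and of 1.78 for Nfkbie, the gene with the largest. On a linear scale these are 1.55-fold and 3.44-fold, and Tnfaip3 would have needed 3.02-fold. The intervals of 8 of the 10 genes lay within a change of 2-fold either way, and those of Nfkbie and Tnfaip3 did not. These genes varied more between replicates than most: the median of the pooled SD was 0.29 log2 units over the 10 genes and 0.17 over all genes. Nfkbie had a larger pooled SD than 97.1% of all genes and Tnfaip3 than 95.7%, while Nfkb1 (33.4%) and Rela (48.6%) were below the middle.

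The arrays that carried this spread were not the same for each gene. On SCC FAK-WT replicate 2, Tnfaip3, Nfkbia and Birc3 were at their lowest in the line, with deviations from its mean of -0.69, -0.48 and -0.24 log2 units. On the same array Nfkb1, Nfkb2, Rela and Nfkbiz were at their highest. Over all genes this array was the lowest of its line at 39.2% and the highest at 30.7%, and its median was 5.90. On SCC FAK-WT replicate 3, Tnfaip3 was 0.56, Nfkbie 0.53 and Nfkbia 0.29 above the line's mean. Within SCC FAK-WT, Tnfaip3 spanned 2.38-fold between arrays, more than its difference between the lines of 1.65-fold. In the SCC FAK-/- line Tnfaip3 spanned 1.32-fold, and there Nfkbie was the most variable, at 2.02-fold. On SCC FAK-/- replicate 3, 6 of the 10 genes were at their line's highest, Nfkb1, Nfkb2, Rela, Nfkbie, Bcl3 and Birc3, whereas 29.8% of all genes were.

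**Figure D3:**
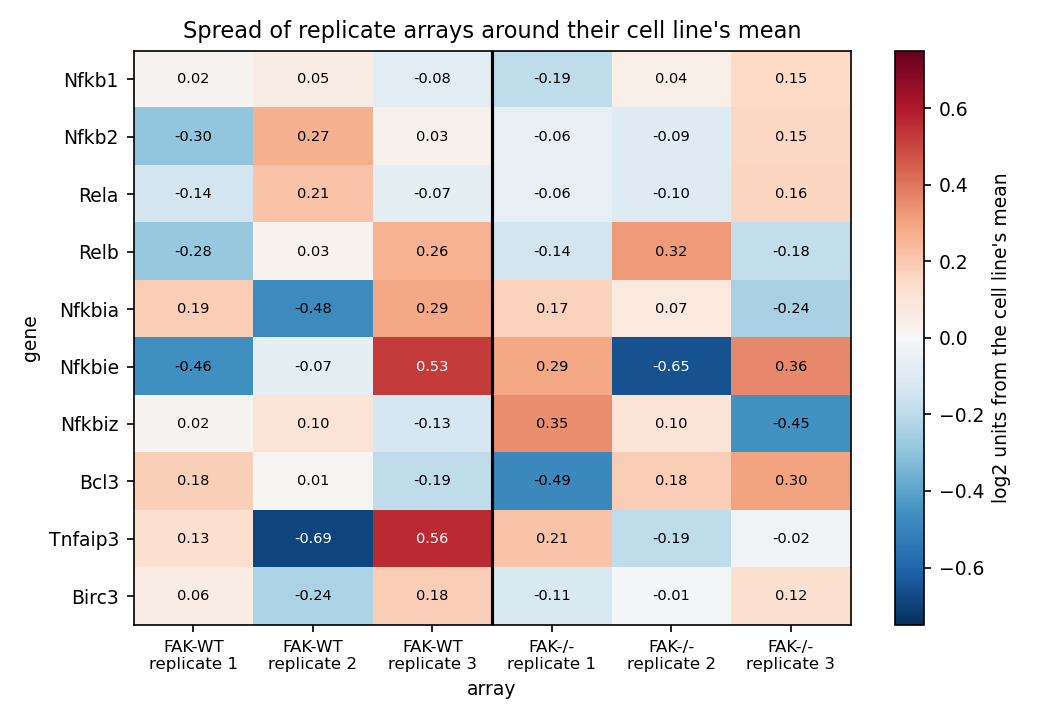
Deviation of each array from its cell line's mean in log2 units, with genes in rows, the 3 SCC FAK-WT arrays left of the black line and the 3 SCC FAK-/- arrays right of it, and red above the mean. Tnfaip3 and Nfkbia are both blue on SCC FAK-WT replicate 2 (-0.69 and -0.48) and red on replicate 3 (0.56 and 0.29).

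The difference between a pair of genes within an array was also compared, for all 45 pairs. A level cannot be set against that of another gene on an array, so only the shift of a difference between the lines is read. The difference did not overlap between the lines in 6 of the 45 pairs (13.3%), beside 17.2% of the 171940 pairs of these genes with other genes, a share no larger among these genes than with others. The pairs named here were chosen after their values were seen and were not tested, since 3 arrays against 3 allow no exact two-sided p below 0.1.

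In Rela and Nfkb2, the arrays ranked in the same order within each line, the 1 pair of the 45 for which this held (2.22%, beside 2.97% of all gene pairs). Rela minus Nfkb2 was also steadier than either gene alone. It was 1.15, 1.15 and 1.16 log2 units in SCC FAK-/- (SD 0.0049) and 0.61, 0.40 and 0.34 in SCC FAK-WT. The difference was smaller on every SCC FAK-WT array, with means of 0.45 ± 0.14 (SD, n = 3) and 1.16, a shift of -0.71. For Rela, 45.3% of its differences with other genes separated the lines likewise, and for Nfkb2 17.9%. The array order shared by Rela and Nfkb2 was also the order of array spread, measured as the interquartile range of each array. This range was 3.997, 4.164 and 4.134 log2 units in SCC FAK-WT and 4.072, 4.003 and 4.150 in SCC FAK-/-. Both genes lay above the median of every array. Whether array spread accounts for the shared order was not tested.

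Tnfaip3 minus Nfkbia, a pair whose arrays did not rank alike, also separated the lines. It was -3.08, -3.22 and -2.74 in SCC FAK-WT and -3.57, -3.88 and -3.40 in SCC FAK-/-. The low SCC FAK-WT replicate 2, which was at the low end for both genes, did not overlap SCC FAK-/- here, and the shift was 0.60 log2 units in favor of Tnfaip3. The difference was not steadier than the genes themselves in SCC FAK-/-, with an SD of 0.24 beside 0.20 for Tnfaip3 and 0.21 for Nfkbia. In SCC FAK-WT it was steadier, with an SD of 0.25 beside 0.63 for Tnfaip3 and 0.42 for Nfkbia. The other pairs that separated were Nfkb2 with Nfkb1 (shift of 0.47 toward Nfkb2), Nfkbie with Rela (0.88 toward Nfkbie), and Birc3 with Nfkb2 and with Tnfaip3 (-0.52 and -0.94, away from Birc3). Differences with other genes separated the lines in 22.5% of cases for Nfkb1, 23.5% for Tnfaip3 and 25.6% for Birc3. The shares were 6.67% for Nfkbie and 5.68% for Nfkbia. With 1 array left out, fewer values have to separate and the count of pairs was 6 to 18, reaching 11 (24.4%) without SCC FAK-WT replicate 1 and 18 (40%) without SCC FAK-WT replicate 2 or SCC FAK-/- replicate 1. The pairs with other genes separated in 30.1%, 36.1% and 36.2% of cases in these fits. Without SCC FAK-WT replicate 3 the count was 6 (13.3%, beside 23.4% with other genes). Without SCC FAK-/- replicate 2 or replicate 3 it was 8 (17.8%, beside 21.7% and 24.9%).

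**Figure D4:**
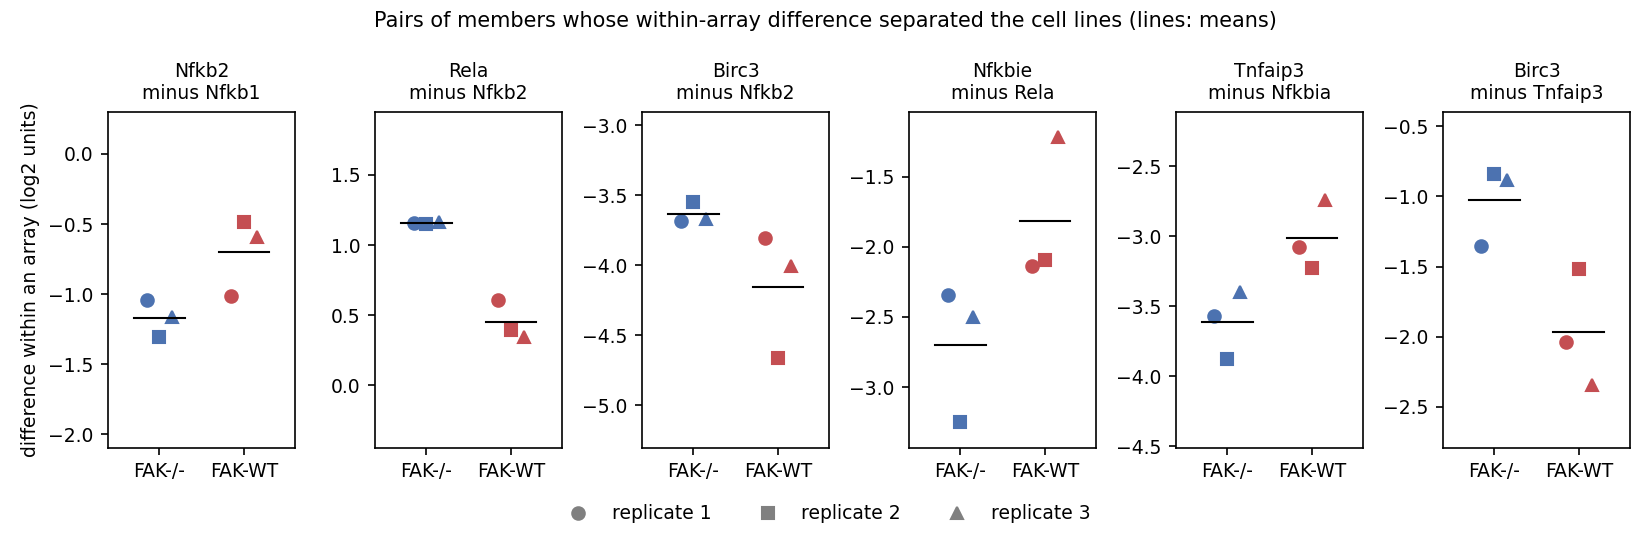
Difference between the log2 values of a pair of genes within each array, for the 6 pairs in which the lines do not overlap, with SCC FAK-/- in blue, SCC FAK-WT in red and means as lines; every panel spans the same number of log2 units. The 3 SCC FAK-/- points of Rela minus Nfkb2 coincide at 1.15 to 1.16, and those of SCC FAK-WT lie at 0.34 to 0.61.

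Beside the promoter matches, the differences between the lines were as follows, with too few genes for a comparison. The 5 genes with a match had log2 fold changes of 0.12 (Nfkbia), 0.48 (Nfkbie), 0.30 (Nfkb2), -0.38 (Bcl3) and 0.72 (Tnfaip3), and the genes searched without one had -0.40 (Rela) and -0.22 (Birc3). Of these 7, Bcl3 was the gene with a match that was lower in SCC FAK-WT, and 0 of the 7 passed the test (limma, adjusted p under 0.05).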

How the data were processed

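Total RNA from 3 samples of each cell line was hybridized to Affymetrix mouse genome arrays. Probe signals were normalized by the authors with RMA in the affy package into 1 value per Ensembl gene identifier. The deposited values were read as log2 expression from their range, since no scale is stated. The versions, the probe mapping and the kind of background correction are not given in the sources used here. SCC FAK-WT was compared with SCC FAK-/- with the lmFit and eBayes functions of limma 3.58.1 (R 4.3.3, two-sided) over all 17204 genes, unfiltered, with Benjamini-Hochberg adjustment, and a gene was called at an adjusted p under 0.05. Groups and replicate numbers came from sample titles. The fit was tested on simulated data. The rule named all 10 genes, and the genes, lists and tests were chosen with earlier results of these data known. Planned lists of other pathway genes, NF-kB targets and cell type markers, and the fak gene, were not analysed here, as no symbols were paired with identifiers. Alternatives were the moderation, 3 scalings, array weights, a filter on dim genes, a minimum of 1.5-fold, the replicate number as a block, array spread as a covariate and leaving out each array. Array values have no read depth, and 3 arrays per line limit the precision. Promoters came from RefSeq.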

Additional observations from a re-analysis of the deposited data

How the results depend on the processing

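Under all 16 settings named in the methods 0 of the 10 genes reached an adjusted p under 0.05 (limma, or the ordinary linear model), in either direction. Few of all 17204 genes did. The counts ran from 14 higher and 25 lower with the ordinary linear model to 247 and 302 with variances moderated robustly along a trend. The minimum of 1.5-fold only narrows the main calls, so its 0 was fixed in advance. At an unadjusted p under 0.01 the counts moved from 0 to 1 lower with quantile normalization and with array spread as a covariate, in both cases Rela (limma adjusted p = 0.141 and 0.139), where 3.92% and 3.4% of all genes were called lower. Leaving out each array in turn gave 0 to 1 higher and 0 to 1 lower: Tnfaip3 and Rela without SCC FAK-WT replicate 2, and Bcl3 without SCC FAK-/- replicate 1 (log2 fold change -0.62, unadjusted p = 0.0052, limma adjusted p = 0.159), in fits that called 2.51% of all genes higher and 3.13% lower, and 2.71% lower. Under the 11 settings that can move a fold change, 106 of 110 recomputed values kept their direction and 4 turned, all with an array left out: Relb (-0.17 to 0.12, turning to 0.11 without SCC FAK-WT replicate 1 and 0.12 without SCC FAK-/- replicate 2), Nfkbia (-0.023 to 0.36, at -0.023 without SCC FAK-WT replicate 3) and Nfkbiz (-0.14 to 0.26, at -0.14 without SCC FAK-/- replicate 3). Ranges with an array left out were -0.27 to -0.10 for Nfkb1 and -0.31 to -0.10 for Birc3. The cause was not tested. The filter on dim genes removed Birc3, which has no value there. With the replicate block, 0 of the 10 genes were called higher and 0 lower at either threshold. Of all 17204 genes, that fit called 69 higher and 91 lower at the adjusted threshold. At the unadjusted one it called 2.42% higher and 3.05% lower. Tnfaip3 had an unadjusted p of 0.0174 there (limma). Deviations of arrays with the same number correlated at -0.034 to 0.028 across genes. Pairs with little shared deviation would give such values as well, so whether the numbers mark pairs is not known. The alternatives for the pairs and the motif were chosen after seeing the data: Rela minus Nfkb2 shifted by -0.71 with quantile normalization and -0.72 with cyclic loess, could not move with centering, and shifted by -0.79 to -0.65 with an array left out.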
